A study of Mus musculus with 12 samples.

Results

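The genes described are 10 subunits and inhibitors of the transcription factor NF-kB in plasma cells of mouse bone marrow: Nfkb1, Rela and Rel (classical branch), Nfkb2 and Relb (alternative branch), Nfkbia, Nfkbib and Nfkbie (inhibitors of the IkB family), and Tnfaip3 and Traf3 (regulators that act through ubiquitin). They were chosen by name from a table of 14219 genes, which held 10 of 10, and all passed the filter on low reads. The mice were of strain C57BL/6 and genotype BLTcre.mcl1fl/+, and tamoxifen turned on a reporter, the human CD4 gene. At 60 or 270 days after that treatment, cells with the reporter (human CD4+, called marked) were sorted apart from cells without it (human CD4-, called unmarked), and each of the 4 groups has 3 libraries. Every group thus carries the same cre and 1 floxed allele of Mcl1, the gene of a survival protein of plasma cells, and all were exposed to tamoxifen. The labels do not give the age of the mice, whether a library is 1 animal or a pool, what drives the cre, or whether the floxed allele had recombined in the marked cells. Mcl1 was lower in the marked library of 6 of 6 pairs that share a specimen number, as were 7.64% of all genes tested. It had 520 ± 32.2 against 414 ± 85.6 CPM at day 60 and 555 ± 31.7 against 438 ± 66.7 at day 270 (unmarked against marked, mean ± SD, n = 3). Mcl1 did not pass the test (adjusted p 0.156 for the mean of both days, limma). Of all genes tested, 70.4% were lower in marked cells on that mean.

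NF-kB proteins act as dimers that wait in the cytoplasm bound to inhibitors. In the classical branch, a kinase complex marks IkB proteins for destruction and frees dimers of p50, made from Nfkb1, with Rela or Rel. In the alternative branch, the kinase NIK accumulates once Traf3 is removed, and p52, made from Nfkb2, enters the nucleus with Relb. Several of these genes are themselves NF-kB targets, so that a pulse of activity rebuilds its own inhibitors. Receptors that support plasma cells in the marrow, among them BCMA, signal in part through NF-kB.

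The libraries held 7449468 to 15943546 reads over the genes of the table, and CPM is the read count of a gene scaled to an equal total in every library. Of the 7 plasma cell markers, Sdc1 had group means of 2008 to 2151 CPM and Xbp1 of 4520 to 5982. As means, 4 of the 7 were lower and 3 higher in marked cells at day 60. At day 270, 6 were lower and 1 higher. Of all tested genes, 63.9% were lower in marked cells at day 60 and 69.2% at day 270. Marked library 2 of day 270 stood apart, with 30.5% of its reads on features that hold ribosomal RNA sequence (0.284% to 12.1% in the other 11), 7.90% on Jchain (15.4% to 31.3%) and 11022 genes with a read (11301 to 13506). Marked library 3 of day 270 was also low in genes with a read, at 11301, against 12580 to 13506 outside these 2 libraries. Values of day 270 without marked library 2 are given after the fold changes. In marked cells RNA of other cells differed too: the summed level of 7 erythroid markers was 107 to 346 CPM in marked and 37.3 to 62.9 in unmarked cells at day 60, and 180 to 788 against 28.5 to 166 at day 270. The sum of 6 markers of dividing cells was 12.8 to 31.6 against 98.2 to 134 CPM at day 60 and 27.9 to 51.9 against 84.2 to 112 at day 270. B cell markers summed to 223 to 272 against 255 to 342 CPM at day 60 and to 215 to 335 against 323 to 382 at day 270, with all 9 in the table. Neutrophil markers summed to 1.29 to 763 against 21.7 to 277 CPM at day 60 and to 77.2 to 510 against 36.7 to 201 at day 270, and 8 of 8 had a higher mean in marked cells at each day. T and NK cell markers summed to 5.27 to 11.4 against 7.98 to 23.8 CPM at day 60 and to 13.5 to 33.3 against 20.7 to 24.5 at day 270. Dendritic cell markers summed to 163 to 180 against 149 to 215 and to 146 to 229 against 214 to 222. In RNA from sorted pools, fewer cells of a type and less RNA per cell cannot be told apart.

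Transcripts of 9 of the 10 genes had lower fitted levels in marked than in unmarked cells when both days were averaged, but 1 gene passed the test. This was Nfkbie, which encodes IkB-epsilon, at 0.544 of its unmarked level (95% interval 0.397 to 0.744, on the scale of CPM + 0.5). The other inhibitors did not pass, and Nfkbia, which encodes IkB-alpha, was the 1 gene with a higher fitted level. Relb, the partner of p52, was lower in 6 of 6 pairs by a smaller amount and did not pass. No subunit of either branch was called in any of 7 comparisons by limma.

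Promoters bear on these genes because several are targets of their own factor. Nfkbie was called lower in marked cells over both days, and Nfkbia was not called. The windows below are the 150 bases before the RefSeq start of Nfkbie, Nfkbia, Nfkb2 (first start) and Rela, which holds no match. They read 5′ to 3′ on the strand of the gene (GRCm38.p6), with matches to the kappaB consensus on either strand in capitals.
Nfkbie, chr17:45555550-45555699, plus strand: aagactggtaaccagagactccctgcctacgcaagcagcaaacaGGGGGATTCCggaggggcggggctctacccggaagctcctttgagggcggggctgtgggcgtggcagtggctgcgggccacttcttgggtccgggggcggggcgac
Nfkbia, chr12:55492648-55492797, minus strand: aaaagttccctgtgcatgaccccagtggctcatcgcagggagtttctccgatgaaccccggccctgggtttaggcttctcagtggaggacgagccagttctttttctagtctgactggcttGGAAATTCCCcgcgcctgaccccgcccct
Nfkb2, chr19:46304587-46304736, plus strand: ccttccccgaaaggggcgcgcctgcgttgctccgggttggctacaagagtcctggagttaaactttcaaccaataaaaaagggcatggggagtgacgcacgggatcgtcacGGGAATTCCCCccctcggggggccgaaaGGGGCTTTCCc
Rela, chr19:5637391-5637540, plus strand: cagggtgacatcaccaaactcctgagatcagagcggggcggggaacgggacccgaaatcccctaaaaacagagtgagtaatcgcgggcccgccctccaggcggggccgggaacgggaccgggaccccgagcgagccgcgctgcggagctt

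The kappaB consensus, a motif of 10 bases, was searched on both strands in the 250 bases before each start, and matches may overlap each other. It was present for 6 of the 8 members with an entry (Rel, Nfkb2, Nfkbia, Nfkbie, Tnfaip3 and Traf3) and for 4.46% of 27025 genes. Rela and Nfkbib had no match in this window, and Nfkb1 and Relb had no entry. The match of Nfkbie, GGGGGATTCC, begins 106 bases before the start (chr17:45555594-45555603), and that of Nfkbia, GGGAATTTCC on the opposite strand, lies at chr12:55492667-55492676. Nfkb2 had 3 matches at its first start, of which 2 overlap, and 0.0426% of all starts had 3 or more. A match is a run of letters and not a measured site.

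**Figure D1:**
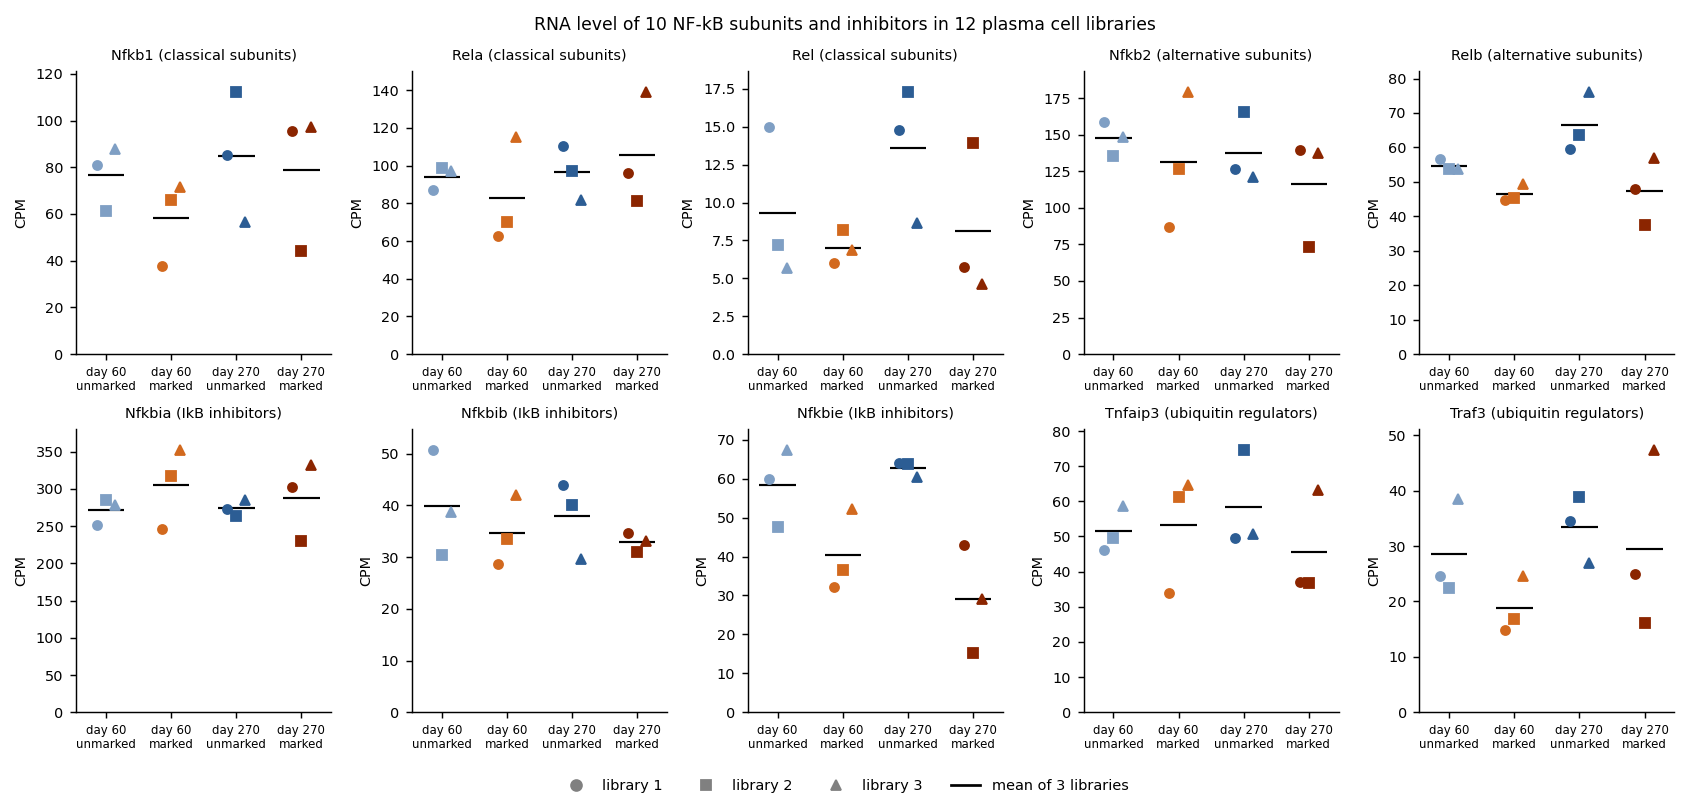
CPM of each of the 10 genes on a linear axis from 0, with 1 point for each of the 12 libraries, marker shape for the library number and a bar for the mean of 3 libraries. The marked libraries of Nfkbie at day 270 sit at 15.2 to 42.9 CPM, below the unmarked ones at 60.5 to 64.1, while those of Nfkbia spread on either side of the unmarked ones.

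Per length of exon, the inhibitor Nfkbia was the most abundant of the 10 in 12 of 12 libraries and the subunit Rel the least abundant in 12 of 12. On the scale of CPM per kb of exon, mean ± SD over 12 libraries, Nfkbia had 177 ± 22.6, Rela 30.8 ± 6.76, Nfkb2 29.1 ± 6.61, Nfkbib 16.8 ± 3.13, Nfkbie 15.6 ± 5.46, Relb 13.8 ± 2.60, Tnfaip3 7.22 ± 1.75, Nfkb1 6.19 ± 1.87, Traf3 3.75 ± 1.39 and Rel 1.27 ± 0.597. Nfkbia stood at percentile 98.2 of the 14165 genes with a length and Rel at percentile 33.3. Neighbours in that order overlapped: Rela was above Nfkb2 in 7 of 12 libraries, Nfkbib above Nfkbie in 7, Nfkbie above Relb in 9 and Tnfaip3 above Nfkb1 in 9. The steps from Nfkb2 to Nfkbib, from Relb to Tnfaip3, from Nfkb1 to Traf3 and from Traf3 to Rel had 1 direction in 12 of 12. Exon lengths are unions over all annotated transcripts, from 1610 bases for Nfkbia to 12061 for Nfkb1.

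**Figure D2:**
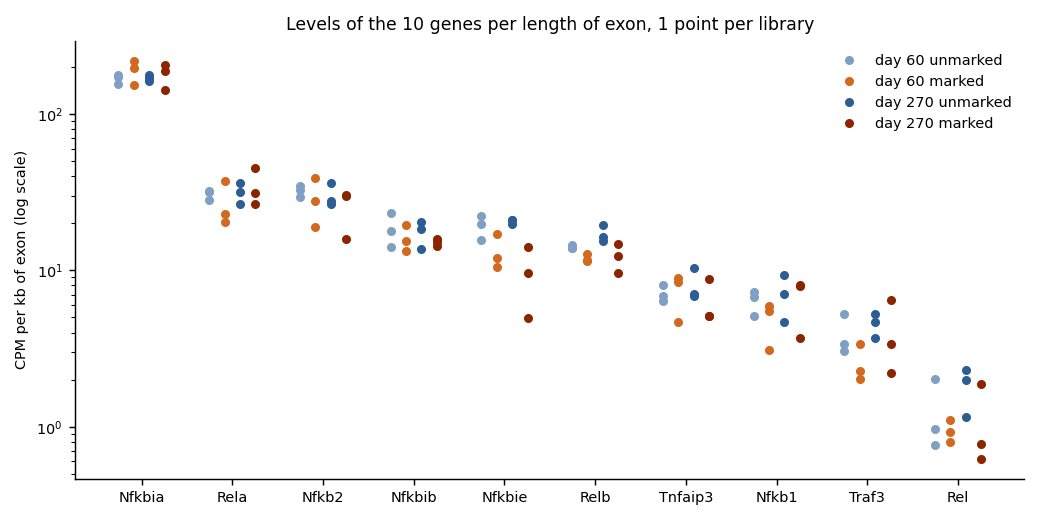
CPM per kb of exon of the 10 genes on a log axis, ordered by their mean, with 1 point for each library coloured by group. Nfkbia stands apart at the top with a mean of 177, and Rel has the lowest mean, 1.27. The points of Rel (0.623 to 2.32) overlap those of Traf3 (2.03 to 6.45), and the colours overlap for most genes.

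Nfkbie was the 1 inhibitor called by limma, and no test compared the inhibitors with each other. Nfkbie (ENSMUSG00000023947, GRCm38 chromosome 17, 45555703 to 45563169, plus strand) encodes an IkB that retains dimers of Rel and Rela in the cytoplasm. At day 60 it had 59.9, 47.6 and 67.4 CPM in unmarked libraries 1, 2 and 3 and 32.2, 36.6 and 52.1 CPM in the marked libraries of the same specimens. Marked library 3 lay above unmarked library 2, so the groups overlapped. At day 270 the unmarked libraries had 64.1, 63.9 and 60.5 CPM and the marked ones 42.9, 15.2 and 29.2, with no overlap. The 4 groups held 113 to 980 reads of the gene per library.

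The log2 fold change of Nfkbie, marked minus unmarked on log2(CPM + 0.5) with the standard error from limma, was -0.54 ± 0.31 at day 60 (adjusted p 0.858) and -1.22 ± 0.31 at day 270 (adjusted p 0.0843). The mean of both days was -0.88 ± 0.22, with an adjusted p of 0.0433 over 12704 genes. It was lower in 6 of 6 specimen pairs, by 46.2%, 23.1% and 22.7% at day 60 and by 33.0%, 76.3% and 51.7% at day 270. The difference between the days did not pass (-0.67 ± 0.43, adjusted p 0.9999). The adjusted p over both days lay close to the threshold of 0.05. It held without marked library 2 of day 270, the library of most ribosomal RNA (-0.68 ± 0.17, adjusted p 0.0346), and ended without libraries 2 and 3 of that group together (-0.54 ± 0.18, adjusted p 0.153). It ended without any 1 of 8 other libraries, each unmarked one among them, with adjusted p up to 0.135.

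The 1 call among 10 genes can be read beside the background of this comparison, in which 1.84% of all 12704 genes were called (1.5% lower, 0.338% higher). At day 60 the background was 0.189% (0.15% lower, 0.0394% higher) and at day 270 0.48% (0.433% lower, 0.0472% higher), with 0 of the 10 genes called by limma in each. At an unadjusted p under 0.05 there were 0 of the 10 at day 60 (6.45% of all genes), 2 at day 270 (14% of all genes) and 2 over both days (16.9% of all genes). DESeq2 called 0 at day 60 and 1 at day 270, with 119 and 256 of all genes, and edgeR and limma-voom 0 and 0. Over both days each of these 3 tools called 1 of the 10. Of all genes, edgeR called 204, DESeq2 544 and limma-voom 242 in that comparison. The direction is shared widely: over both days 70.4% of all genes had a negative log2 fold change and the median of all genes was -0.18, against -0.27 for the 10. Scaling by TMM moved the median of all genes to -0.07 and that of the 10 to -0.14, and then 8 of 10 were lower, Rela having turned.

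Nfkbia (ENSMUSG00000021025, chromosome 12, 55489410 to 55492647, minus strand), the IkB that turns over fastest after stimulation, had 252, 286 and 279 CPM in unmarked and 247, 318 and 353 in marked cells at day 60. Day 270 libraries had 273, 263 and 286 CPM in unmarked and 302, 230 and 333 in marked cells. The groups overlapped at each day, and the marked libraries spread more widely. The log2 fold change over both days was 0.11 ± 0.12 (adjusted p 0.699), with a 95% interval from -0.15 to 0.36. That of Nfkbie ran from -1.33 to -0.43, and the difference of the 2 genes was not tested. With reads rescaled to those outside ribosomal features and Jchain, the day 270 groups no longer overlapped (373 to 395 marked against 319 to 371 unmarked). The share of all genes that separated under this scaling was not counted. On CPM it was 3.28% with marked cells higher. The rescaling moved the day 270 median log2 fold change of all genes from -0.22 to -0.13. The authors' deposited table lists Nfkbia at day 60 with a log2 fold change of 0.28 and an FDR of 0.622.

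Nfkbib (ENSMUSG00000030595, chromosome 7, 28758251 to 28767512, minus strand) encodes IkB-beta, an inhibitor whose gene is not known for the rapid feedback of Nfkbia. It had 50.7, 30.5 and 38.6 CPM in unmarked and 28.6, 33.5 and 42.0 in marked cells at day 60. At day 270 the values were 43.9, 40.1 and 29.6 in unmarked and 34.6, 30.9 and 33.0 in marked cells. The groups overlapped at both days, and the mean over both was -0.19 ± 0.18 (adjusted p 0.641). Its 95% interval, from -0.57 to 0.20, overlaps that of Nfkbie. Of its exon bases, 14.5% overlap Ccer2 and 1.94% Sirt2 on the opposite strand, and reads there could not be assigned without strand.

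Within a library, the ratio of Nfkbia to Nfkbie reads separated the groups. It was 4.13 to 5.99 in unmarked and 6.77 to 8.68 in marked cells at day 60, and 4.12 to 4.72 against 7.04 to 15.1 at day 270. The value of 15.1 is that of marked library 2, and the other 2 were 7.04 and 11.4. A ratio within a library does not depend on scaling. It was computed because of the values above, and it is given with no test and no count of other gene pairs that separate.

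Of the alternative subunits, Relb (ENSMUSG00000002983, chromosome 7, 19606217 to 19629438, minus strand) had 56.5, 53.7 and 53.6 CPM in unmarked and 44.7, 45.4 and 49.4 CPM in marked cells at day 60. The values of day 270 were 59.7, 63.5 and 76.2 CPM in unmarked and 47.9, 37.5 and 57.0 in marked cells. The groups did not overlap at either day, which held for 1 of the 10 genes and for 2.96% of all genes with marked cells lower. At day 60 alone that was 1 of 10 (background 11.3%) and at day 270 2 of 10 (background 12%), and with marked cells higher 0 of 10 at either day (4.46% and 3.28%). Relb and Nfkbie were lower in all 6 pairs, as were 7.64% of all genes, and 0 of 10 were higher in all 6 (1.85%). The log2 fold change of Relb was -0.23 ± 0.21 at day 60 (adjusted p 0.936), -0.49 ± 0.21 at day 270 (adjusted p 0.301) and -0.36 ± 0.15 over both (adjusted p 0.226).

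Nfkb2 (ENSMUSG00000025225, chromosome 19, 46304320 to 46312385, plus strand), the precursor p100 that is processed to p52, had 159, 135 and 149 CPM in unmarked and 87.2, 127 and 179 in marked cells at day 60. Day 270 values were 127, 165 and 121 in unmarked and 139, 72.9 and 138 CPM in marked cells. The groups overlapped at each day, with marked libraries above and below the unmarked range at day 60 and 1 below it at day 270. The mean over both days was -0.26 ± 0.18 (adjusted p 0.510), and its interval from -0.64 to 0.13 holds a fall to 0.640 of the unmarked level as well as no change. Of its exon bases, 11.6% overlap the antisense transcript AC114539.1 and 6.52% overlap Psd.

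The classical subunits showed no call. Nfkb1 (ENSMUSG00000028163, chromosome 3, 135584655 to 135691547, minus strand), the precursor p105 of p50, had 81.0, 61.5 and 88.0 CPM in unmarked and 37.5, 65.9 and 71.6 in marked cells at day 60. The day 270 libraries had 85.1, 112 and 56.5 in unmarked and 95.4, 44.3 and 97.2 in marked cells. Its log2 fold change was -0.43 ± 0.32 and -0.13 ± 0.32 at the days, and at day 270 its sign turned in 5 of 25 alternative settings.

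Rela (ENSMUSG00000024927, chromosome 19, 5637483 to 5648130, plus strand) encodes p65, the main activating subunit of the classical branch. It had 86.9, 98.6 and 97.0 CPM in unmarked and 62.5, 69.95 and 115 in marked cells at day 60, and 110, 97.2 and 81.6 against 96.2, 81.3 and 139 at day 270. The mean over both days was -0.07 ± 0.17 (adjusted p 0.877). Rela and Nfkbia were the 2 of 10 with a positive log2 fold change at day 270 (0.10 ± 0.24 for Rela).

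Rel (ENSMUSG00000020275, chromosome 11, 23736847 to 23770970, minus strand) encodes c-Rel, a subunit known for its part in B cell proliferation. It was low, with 15.0, 7.21 and 5.71 CPM in unmarked and 5.99, 8.21 and 6.88 in marked cells at day 60. Its CPM at day 270 was 14.8, 17.3 and 8.64 CPM in unmarked and 5.77, 13.96 and 4.65 in marked cells. It was lower in 3 of 3 pairs at day 270 and in 1 of 3 at day 60. The log2 fold change was -0.28 ± 0.50 at day 60 (adjusted p 0.987) and -0.81 ± 0.50 at day 270 (adjusted p 0.484), with the widest errors among the 10.

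Traf3 (ENSMUSG00000021277, chromosome 12, 111166370 to 111267153, plus strand), the adaptor that holds NIK low, was below its partner in 3 of 3 pairs at day 60, with 24.7, 22.5 and 38.5 CPM in unmarked and 14.9, 16.8 and 24.7 in marked cells. By day 270 there were 34.5, 38.8 and 27.0 CPM in unmarked and 25.0, 16.1 and 47.4 in marked cells, and the third pair went the other way. Its log2 fold change was -0.59 ± 0.36 at day 60 (adjusted p 0.873) and -0.44 ± 0.25 over both days (adjusted p 0.394).

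Tnfaip3 (ENSMUSG00000019850, chromosome 10, 19000910 to 19015657, minus strand), whose product A20 edits ubiquitin chains and damps the classical branch, had 46.1, 49.7 and 58.6 CPM in unmarked and 33.8, 61.3 and 64.6 in marked cells at day 60. At day 270 it had 49.7, 74.7 and 50.7 in unmarked and 37.0, 36.6 and 63.2 in marked cells. The groups overlapped at both days. The fitted fold was 0.999 at day 60 (95% interval 0.663 to 1.51) and 0.772 at day 270 (0.512 to 1.16), where the adjusted p was 0.565.

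Without marked library 2 of day 270, the day 270 log2 fold change of Nfkbie was -0.82 ± 0.25 (adjusted p 0.164). That of Relb was then -0.34 ± 0.20 and that of Rel -1.25 ± 0.48 (adjusted p 0.263). The sign turned for 3 of the 10: Nfkb1 went from -0.13 to 0.24 ± 0.29, Nfkb2 from -0.29 to 0.02 ± 0.23 and Traf3 from -0.30 to 0.06 ± 0.33. Rela and Nfkbia had 0.27 ± 0.24 and 0.21 ± 0.16, and Nfkbib and Tnfaip3 had -0.14 ± 0.27 and -0.24 ± 0.29. With that library left out, 5 of the 10 genes had a negative value at day 270, and 0 were called by limma.

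**Figure D3:**
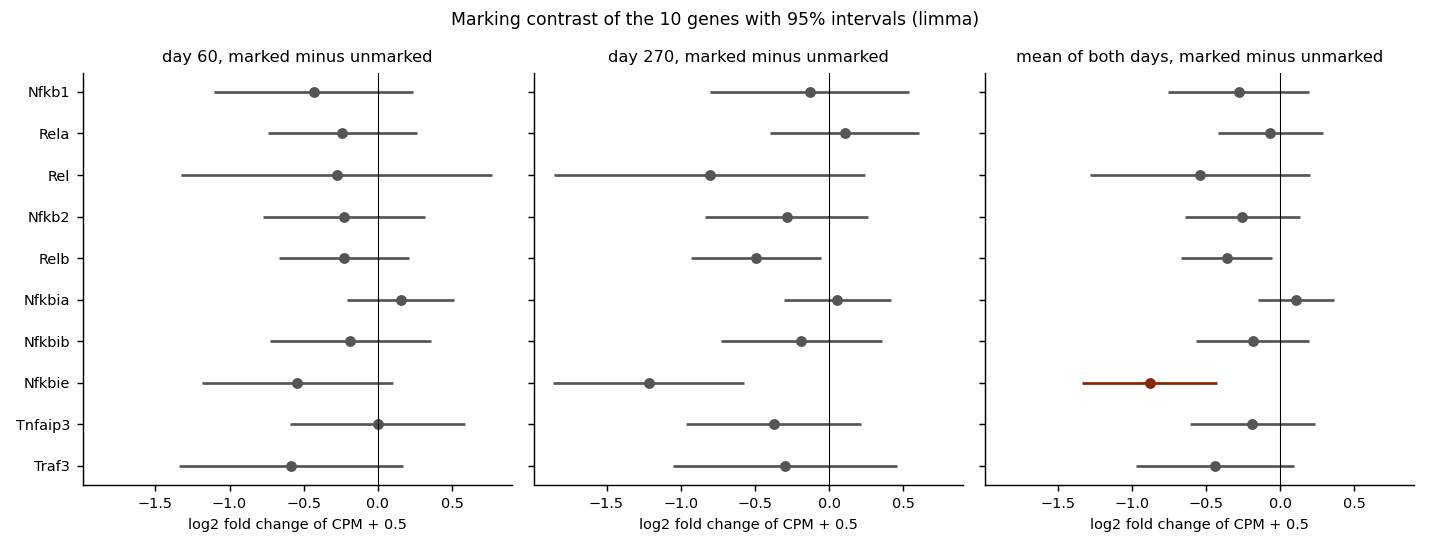
Log2 fold change of CPM + 0.5, marked minus unmarked, for the 10 genes at day 60, at day 270 and for the mean of both days, with points for the limma estimate and lines for its 95% interval. The 1 gene in red, Nfkbie at -0.88 for the mean of both days, passed an adjusted p of 0.05.

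The RNA of the 2 branches was compared by ratios of reads within a library, in which the length of the genes cancels between libraries. These ratios do not measure the activity of a branch. The ratio of Nfkb2 to Nfkb1 was 1.69 to 2.20 in unmarked and 1.92 to 2.51 in marked cells at day 60, and 1.47 to 2.14 and 1.42 to 1.65 at day 270. The marked libraries of day 270 thus lay below those of day 60 with no overlap, while the unmarked libraries of the days overlapped. The ratio of Relb to Rela was 0.545 to 0.651 in unmarked and 0.429 to 0.715 in marked cells at day 60. At day 270 it was 0.540 to 0.933 in unmarked and 0.409 to 0.497 in marked cells, which did not overlap. The ratio of Relb to Rel was 2.68 to 12.3 over the marked libraries of day 270 and 3.67 to 8.82 over the unmarked ones, and it followed the low and variable Rel. For both branch ratios of subunits, Nfkb2 to Nfkb1 and Relb to Rela, the marked and unmarked groups of day 60 overlapped. The ratios have no test, and the share of other gene pairs that separate in this way was not counted. Among single genes at day 270, 12% did not overlap with marked cells lower and 3.28% with marked cells higher.

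**Figure D4:**
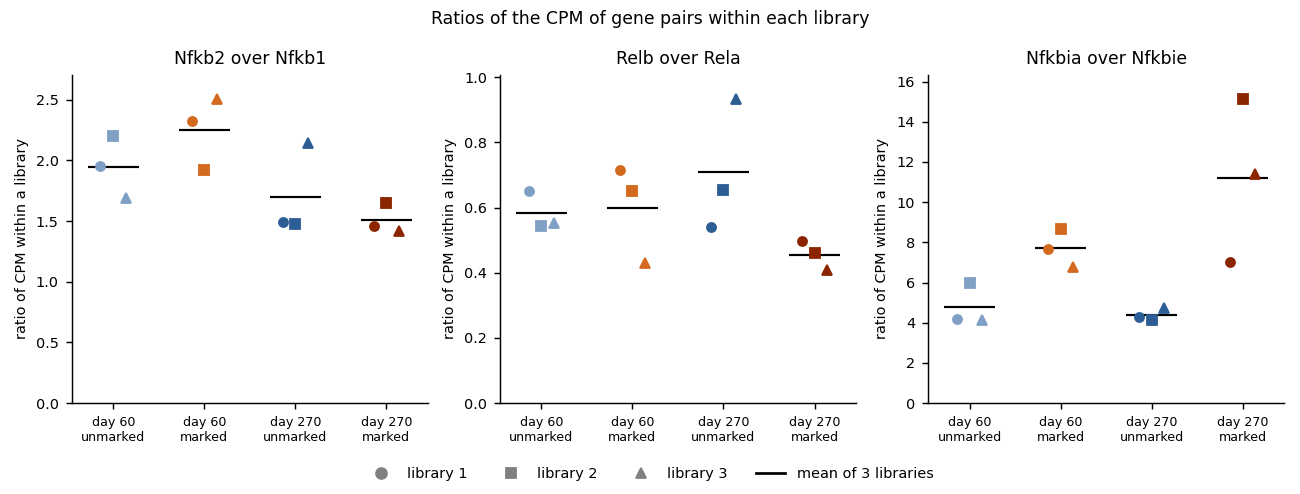
Ratio of CPM within a library for Nfkb2 over Nfkb1, Relb over Rela and Nfkbia over Nfkbie on linear axes from 0, with 1 point for each library and a bar for the mean of 3. The marked libraries of Nfkbia over Nfkbie (6.77 to 8.68 and 7.04 to 15.1) lie above the unmarked ones of the same day, and the other 2 ratios overlap between the groups of day 60.

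Time since tamoxifen changed none of the 10 at the threshold. In marked cells, day 270 against day 60, 0 of 10 were called by limma (background 0.0315%, with 0.00787% lower and 0.0236% higher), 0 had an unadjusted p under 0.05, and DESeq2, edgeR and limma-voom called 0. The log2 fold changes ran from -0.55 ± 0.31 for Nfkbie to 0.53 ± 0.36 for Traf3, with 5 higher and 5 lower. In unmarked cells 0 of 10 were called by limma (background 0%), 0 had an unadjusted p under 0.05, the other 3 tools called 0, and 8 were higher, from -0.11 for Nfkb2 to 0.58 for Rel. For the difference between the days 0 of 10 were called by limma, DESeq2, edgeR and limma-voom, with 0 at an unadjusted p under 0.05 by limma (background 0%).

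Day 270 marked cells were also set against day 60 unmarked cells, the comparison of the authors' second deposited table, in which marking and day cannot be told apart. It shares its libraries with the comparisons above. Nfkbie had a log2 fold change of -1.10 ± 0.31 and did not pass (adjusted p 0.0805), and 0 of 10 were called by limma (background 1.54%, with 0.748% lower and 0.795% higher), with 1 at an unadjusted p under 0.05 (14.4% of all genes). DESeq2 called 1, Nfkbie, and 573 of all genes. Without marked library 2 of day 270 Nfkbie had -0.70 ± 0.25 (adjusted p 0.164). The authors' deposited table of 265 genes for this pairing holds 0 of the 10. Their deposited table for day 60 gives Nfkbie a log2 fold change of -0.42 and an FDR of 0.719, the second lowest FDR of the 10 after Nfkbia.

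The members vary together only in part over the 12 libraries. The gene whose log2 levels ran closest to those of Nfkb1, by Pearson correlation over 12 libraries among 7820 genes with a mean of at least 10 CPM, was Wipf2 (0.957), then Raly (0.955) and Nacc1 (0.942). For Nfkb2 they were Foxj2 (0.945), Pdxk (0.943) and Trim26 (0.942). For Nfkbie, chosen after its values were seen, the closest was Eml3 (0.989). Among the 10 themselves Nfkb1 and Traf3 had 0.826, Rela and Traf3 0.799 and Nfkb1 and Nfkb2 0.793. Nfkb2 and Nfkbie had 0.765 and Relb and Nfkbie 0.743, whereas Nfkbia and Rel had -0.576. The libraries share specimens, groups and scaling, and these correlations are a description.

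The rest of the pathway was read from 6 lists of 84 genes, of which 77 were in the table and were tested. Over both days 1 was called higher and 1 lower in marked cells (background 0.338% and 1.5%), with 57 of 77 negative and a median of -0.20, against 70.4% negative and a median of -0.18 over all genes. At day 60 and at day 270 alone 0 of 77 were called by limma.

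The kinases and ligases above IkB gave no call among 16 (12 negative, median -0.31). Chuk, which encodes the kinase IKK-alpha of the alternative branch, had a log2 fold change over both days of -0.36 ± 0.15 (adjusted p 0.240). Ikbkb, the kinase of the classical branch, had -0.42 ± 0.37, and their scaffold Ikbkg had 0.07 ± 0.18. Map3k14, the gene of NIK, was low at 1.21 to 13.8 CPM over the 12 libraries, with -0.23 ± 0.44.

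Other IkB proteins and negative regulators gave no call among 16 (13 negative, median -0.13). The nuclear IkB gene Bcl3 had -0.09 ± 0.27. Traf2 and Birc2, which with Traf3 mark NIK for destruction, had -0.20 ± 0.29 and -0.13 ± 0.16, and Cyld, a deubiquitinase, -0.11 ± 0.13. All 11 adaptors were negative, with a median of -0.39 and 0 called by limma.

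Of 7 receptors of the alternative branch 4 were negative (median -0.07), and of 9 receptors of the classical branch 4 were negative (median 0.11, 0 called by limma). The 1 receptor called was Ltbr, the lymphotoxin beta receptor, which signals to both branches. It had 2.63, 4.12 and 0.344 CPM in unmarked and 5.02, 9.99 and 10.9 in marked cells at day 60, and 2.67, 6.26 and 6.03 against 12.1, 11.9 and 37.3 at day 270. The groups did not overlap at either day, as for 0.669% of all genes with marked cells higher. Its log2 fold change over both days was 1.86 ± 0.46 (adjusted p 0.0447), and that of day 270 marked against day 60 unmarked cells was 2.97 ± 0.65 (adjusted p 0.0253). The call over both days ended in 9 of 12 fits that left out 1 library (adjusted p up to 0.147) and with the specimen as a block (adjusted p 0.0556). In the same libraries the 10 monocyte and macrophage markers summed to 163 to 280 CPM in marked and 103 to 360 in unmarked cells at day 60, and to 302 to 688 against 182 to 364 at day 270, with 5 of 10 higher as means in marked cells at day 60, 9 of 10 at day 270 and none at 0. Their part in the level of Ltbr was not tested.

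Tnfrsf17, which encodes BCMA, had 374 and 363 CPM in marked and 313 and 345 in unmarked cells at days 60 and 270 as means of 3 libraries (0.16 ± 0.12, adjusted p 0.504).

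Among 18 other NF-kB targets in the table, 1 was called lower, Plek (pleckstrin), at 157, 149 and 162 CPM in unmarked and 119, 95.5 and 121 in marked cells at day 60. At day 270 it had 157, 166 and 172 against 139, 63.9 and 96.1. The groups did not overlap at either day, as for 2.96% of all genes with marked cells lower. The log2 fold change of Plek over both days was -0.64 ± 0.15 (adjusted p 0.0397). That call ended in 9 of 12 fits without 1 library (adjusted p up to 0.123) and with the specimen as a block (adjusted p 0.0516). The target list had 13 of 18 negative with a median of -0.18. Birc3, an inhibitor of apoptosis and a classical target, had -0.13 ± 0.15 over both days.

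Beside the lower Nfkbie and Relb, the dividing-cell markers were lower and the erythroid and neutrophil markers had higher medians of their sums in marked cells at each day, with the ranges given above. The part of those cells in the levels of Nfkbie and Relb was not tested. Rescaled to reads outside ribosomal features and Jchain, Nfkbie had 24.6 to 54.3 in marked and 77.4 to 80.1 in unmarked libraries at day 270. Relb had 60.6 to 67.6 against 74.6 to 99.1, so that the groups of both genes still did not overlap. The share of all genes that separated under this scaling was not counted. On CPM it was 12% with marked cells lower at day 270.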

How the data were processed

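Sorted cells gave RNA through Qiagen RNeasy Micro columns, and TruSeq RNA chemistry was used for sequencing libraries, per the labels' protocols. The submitters' processing notes name GRCm38 and limma. Aligner, counter and annotation: not given in the sources used here. Per the file headers, the authors deposited CPM per library for 14219 genes, a log2 fold change against day 60 unmarked cells, a p-value and an FDR, and a count table of 230 genes in whole reads. CPM times 1 total per library gave whole reads (tolerance 0.05) for 100% of 131943 values under 1000 reads. These totals cover the genes of the table and are not the full depth.

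The fit was limma 3.58.1 (R 4.3.3) with a trended prior on log2(CPM + 0.5), over 12 libraries with 1 coefficient per group. It used the 12704 genes kept by filterByExpr of edgeR 4.0.16 (minimum count 10). Calls are at a Benjamini-Hochberg adjusted p under 0.05 within each of 7 comparisons, with no adjustment across them, and tests are two-sided. limma-voom, edgeR and DESeq2 1.42.0 on the recovered reads, other scalings, filters, pseudocounts and sets of libraries were alternatives. The tests were run on simulated data first. The genes and lists were chosen with earlier results of these data known. Named genes are the 10 members, Mcl1, 10 fixed pathway genes, pathway genes called in a comparison, and the 3 closest genes to Nfkb1 and Nfkb2. Positions and exon lengths are from GENCODE M21 (GRCm38), and promoters from RefSeq (GRCm38.p6). The features that hold ribosomal RNA sequence, 10 in all, were chosen after their values were seen. The labels do not say that libraries are separate animals, so p-values measure the spread between libraries.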

Additional observations from a re-analysis of the deposited data

Results flagged for a closer look

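Birc3, an inhibitor of apoptosis and a target of NF-kB, went opposite ways at the 2 days in every pair. It was higher in marked cells in 3 of 3 pairs at day 60 (44.7 ± 3.24 CPM in unmarked and 49.3 ± 1.39 in marked cells, n = 3) and lower in 3 of 3 pairs at day 270 (64.4 ± 5.24 and 49.2 ± 10.1). The log2 fold change at day 270 minus that at day 60 was -0.54 ± 0.29, and it did not pass in limma (adjusted p 0.9999). Birc3 was picked by searching the named genes for this pattern. The share of all genes that show it was not counted, so the pattern is given as a description only.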

How the results depend on the processing

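With 25 alternative settings, the 70 results of the 10 genes (each in 7 comparisons) gave 1730 values, of which 119 had another sign than the value reported. None of those was past the threshold in either setting. The count of called genes among the 10 for the mean of both days, 1, became 0 with a pseudocount of 0.1, without libraries 2 and 3 of day 270 marked cells and without the 4 libraries numbered 5 to 8. It ran from 0 to 1 when 1 library was left out. At day 270 the count of 0 became 1 with TMM scaling, with reads outside ribosomal features and Jchain and with DESeq2, and ran from 0 to 1 when 1 library was left out, the 1 being the fit without marked library 1. The same held for day 270 marked against day 60 unmarked cells. In each such case the gene was Nfkbie, whose log2 fold change over both days ran from -1.05 to -0.54 (adjusted p 0.00705 to 0.224) and was called in 13 of 24 settings. At day 270 it ran from -1.55 to -0.54 and was called in 4 of 25. All genes called at day 270 rose from 61 to 475 without marked library 1, the most of any setting. Among settings that left out no single library the most was 256, with DESeq2. Ltbr was called in 9 of 24 settings for the mean of both days and in 18 of 25 for day 270 marked against day 60 unmarked cells, and Plek in 10 of 24. With only the 6 compared libraries fitted, 44 genes were called at day 60, 0 at day 270, 0 between the days in marked cells and 7 for day 270 marked against day 60 unmarked cells. The counts were 24, 61, 4 and 196 in the fit of all 12. DESeq2 called 119, 256, 128 and 573, and 544 for the mean of both days against 234.

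The sample descriptions give each marked library the specimen number of 1 unmarked library of its day, without saying what a specimen is. Their residuals correlated with a median of 0.0556 (6 pairs, -0.0109 to 0.115), and those of different specimens with a median of -0.0194 (12 pairs). With the specimen as a replicate block Nfkbie had -0.88 ± 0.20 over both days (adjusted p 0.0434), and the block changed no call among the 10 genes. It ended the calls of Ltbr (adjusted p 0.0556) and Plek (0.0516) for that mean. All genes called numbered 38 in place of 24 at day 60, 44 in place of 61 at day 270, 186 in place of 234 for the mean and 185 in place of 196 for day 270 marked against day 60 unmarked cells. Across days the block was the replicate number. Among the libraries numbered above 8, each unmarked one has a lower number than each marked one, and the effects of number and of marking cannot be separated among them. Within the libraries numbered 5 to 8, with 1 per group and no test, Nfkbie was 46.2% lower at day 60 and 33.0% lower at day 270. For Rel, with errors of 0.50 on the log2 scale, a fall to 0.398 of the unmarked level or a rise to 1.71 of it lies within the day 60 interval.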
